A study of Mus musculus with 46 samples.

Results

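Kap encodes the kidney androgen-regulated protein, and its RNA was followed in kidney and liver of mice of 3 kinds. Kap was chosen by name, and it is 1 of the 18531 genes in the table of group means at 18 months and 1 of the 17242 genes in the table at 12 weeks. All mice were wild type (WT) of the C57BL6 strain. Sham males (ShamM), castrated males (CasM) and sham females (ShamF) were operated at 8 weeks of age, so every group had surgery, and tissues were taken at 12 weeks or at 18 months. The 46 RNA libraries, made from polyadenylated RNA, came to 3 per tissue and age for ShamM and for ShamF. CasM had 6 per tissue at 12 weeks and 5 at 18 months. The series set out to look for mechanisms that link castration to ageing in good health. Each value below is a group mean deposited by the authors without its spread, so the depth of the libraries and the values of single mice are unknown. The labels number the libraries and do not say that each came from its own mouse, so a p-value here measures the spread between libraries as deposited.

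Kap is made in the proximal tubule, the part of the nephron that takes back most of the filtered solutes, and its transcript is known as one of the most abundant in mouse kidney. Androgen is the classical regulator of the gene in this tubule, and other hormones are known to act on it as well. The promoter of Kap has been used to direct transgenes to proximal tubule cells, and the protein is known to bind cyclophilin B, a peptidyl-prolyl isomerase of the secretory pathway.

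In the GENCODE vM21 annotation of GRCm38 (the same coordinates as mm10), Kap lies on the minus strand of chromosome 6, from base 133849851 to base 133853762. The annotation gives Kap 2 transcripts of 4 exons each. Kap-201 has 707 bases with 363 coding bases, and Kap-202 has 464 bases with 312 coding bases, a difference of 17 codons. The deposited tables give 1 value per gene, so the transcripts were not told apart. RefSeq places the start of Kap at base 133853667, inside the longer GENCODE transcript. Stretches of DNA before this RefSeq start are shown because they are part of the window that was searched for hormone receptor sites. The first lies outside the GENCODE gene and the second inside it. They are read 5′ to 3′ along the minus strand from the RefSeq promoter table (GRCm38.p6), with chr6:133853763-133853917 first and chr6:133853681-133853710 second, and the capitals mark a TATA box.
Kap upstream: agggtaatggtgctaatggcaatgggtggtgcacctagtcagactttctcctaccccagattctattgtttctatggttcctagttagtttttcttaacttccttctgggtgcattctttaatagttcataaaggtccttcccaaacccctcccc
Kap TATA: gagtacaggatgTATAAAagcccaggagga

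The window searched ran from 250 bases before the RefSeq start of Kap to 50 bases after it, on both strands. The TATA box (TATAAA) lies 31 bases before the start, and 13.6% of the 32851 promoter windows of that length hold these letters. A match to the spaced core of the androgen response element (ACANNNTGT) lies 39 bases before the start and shares 1 base with the TATA box. These letters occur in 6.85% of windows. The full element (AGAACA, any 3 bases, TGTTCT), its single arm (AGAACA), the oestrogen response element (GGTCA, any 3 bases, TGACC), the single arm of other nuclear receptor sites (AGGTCA) and a C/EBP site (TTGCNNAA) had no match in this window of Kap. The shares of windows that hold them are 0.00913%, 19.0%, 0.0700%, 16.3% and 10.8% in that order. No binding was measured here, and sites farther from the start of Kap were not searched.

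In 18-month kidney, the mean of Kap was 74818 units of expression in sham males, 25377.5 in sham females and 816 in castrated males. The order was thus sham male, sham female, castrated male, and castrated males kept 1.09% of the level of sham males and 3.21% of that of females. The unit of the 18-month values is not named in the sources used here. Kap was the most abundant gene of the sham male kidney, at 3.84 times Gpx3, the secreted glutathione peroxidase that came second with 19486 units. Kap was also the most abundant gene in female kidney, at 1.57 times Gpx3. In castrated males Gpx3 led, and Kap stood at place 126 of 18531, between the translation elongation factor Eef2 and the ribosomal protein Rpl13a. Even there Kap lay above 99.3% of genes, so the transcript was still abundant.

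At 12 weeks Kap had a mean of 689 FPKM (fragments per kilobase of transcript and library size, a level per length) in castrated male kidney and 27835 FPKM in sham female kidney. The sham male mean of Kap is listed at 0. A mean of 0 for a gene that leads the female column was taken as a failed estimate, so it is no measurement of the male level and no 12-week comparison with sham males was made for Kap. Gpx3 is likewise at 0 after this subtraction in sham and castrated males at this age, while its female mean was 11183 FPKM. In 12-week females Kap ranked first, at 2.49 times Gpx3, and in castrated males it ranked 64 of 17242, between Ptms and Ppia. Gpx3 has no estimate in the castrated male column, so it takes no place in that order. Among the genes with an estimate that column was led by Miox, the myo-inositol oxygenase of the tubule, at 3189 FPKM. The ages were processed separately and carry different units, so levels of Kap were not compared between them.

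**Figure D1:**
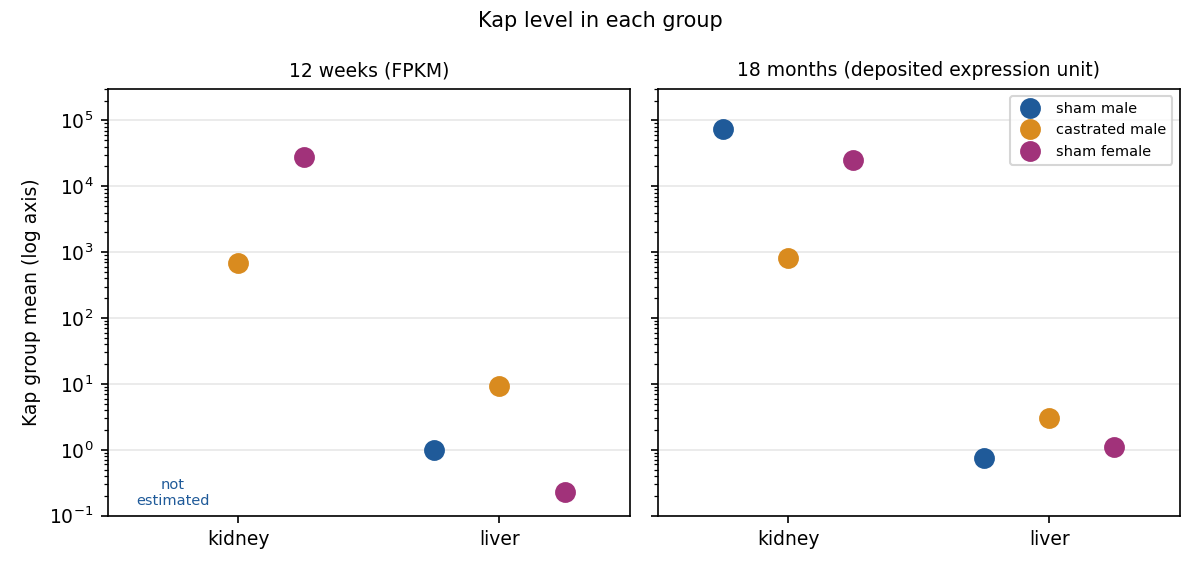
Kap group mean in kidney and liver at 12 weeks (FPKM, left) and 18 months (deposited unit, right) on a log axis, with 1 point per group and no error bar because the deposited values are means. In 18-month kidney the points lie at 74818 (sham male), 816 (castrated male) and 25377.5 (sham female), and the 12-week sham male kidney has no point because its mean was not estimated.

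**Figure D2:**
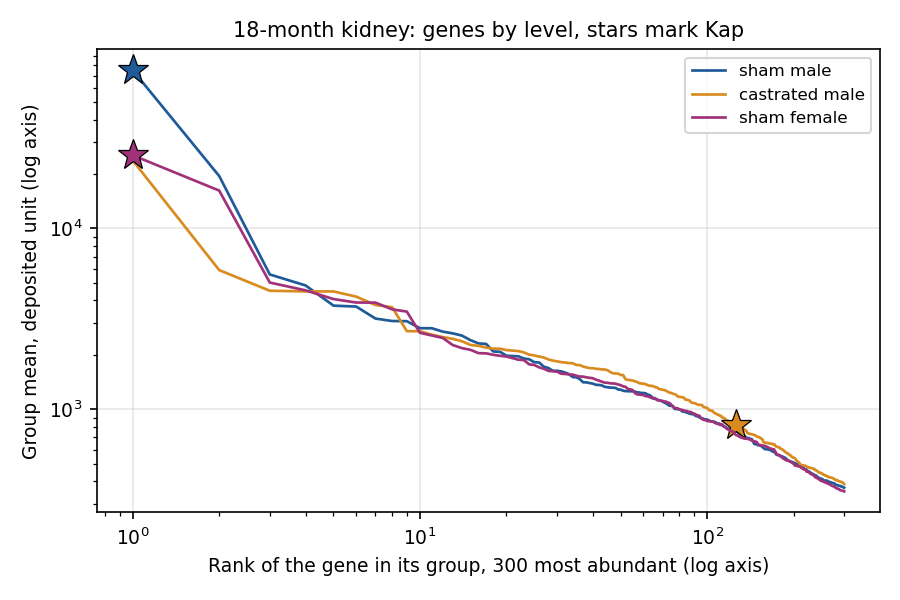
Level of the 300 most abundant genes of each 18-month kidney group by rank, both axes log, 1 line per group, with a star at Kap. Kap stands first in sham males and in females and at place 126 in castrated males.

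Kap fell with castration in 18-month kidney, and its fall in log2(mean + 1) ranked first. The castrated male mean was 91.7 times below the sham male mean, a difference of -6.52 in log2(mean + 1), which ranked 1 among the falls of the 9437 genes whose larger mean was 5 or more. By the ratio of means alone some genes that came close to 0 fell further, such as Slco1a1, an organic anion transporter, from 64.8 to 0.044. For Kap after castration, the log2 fold in the authors' deposited table is -6.65, with an adjusted p = 5.66e-52 by DESeq2. The error that this p implies is 0.427, and the implied 95% interval runs from -7.49 to -5.81. Whether fewer proximal tubule cells or less Kap RNA per cell lies behind a fall cannot be told apart in bulk tissue.

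Kap was also lower in females than in sham males at 18 months. The female mean was 2.95 times below the male mean, a difference of -1.56 in log2(mean + 1), which ranked 75 among the falls of 9439 genes. In the authors' deposited table the log2 fold is -1.67, the implied error 0.368, the implied 95% interval -2.39 to -0.95 and the DESeq2 adjusted p = 8.9e-05. The difference between the sexes was thus smaller than the difference made by castration, and both were larger than their implied errors.

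Castrated males fell below the level of females, which is the direct test of whether both low groups shared a level. The castrated male mean was 31.1 times below the female mean at 18 months, a difference of -4.96 in log2(mean + 1), the second largest fall of 9511 genes after Akr1c18. The authors' deposited table gives a log2 fold of -4.97 for this comparison of Kap with an implied error of 0.498, an implied 95% interval of -5.94 to -3.99 and a DESeq2 adjusted p = 1.74e-20. At 12 weeks the castrated male mean of Kap was 40.4 times below the female mean, a difference of -5.33 in log2(mean + 1) and the second largest fall of 8350 genes. The authors' deposited 12-week table lists Kap for this comparison alone, with an adjusted p = 0.000476 in the column layout of Cuffdiff. The fall of Kap below females was thus called at both ages, in separate libraries.

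Because Kap was so abundant, its fall made up a large part of the summed falls of all genes. Rises were not counted in these shares. Kap took 10.9% of the summed means of 18-month sham male kidney, 3.99% in females and 0.124% in castrated males. Kap fell by 74002 units between sham and castrated males, and this was 59.8% of the summed falls of all genes. The next largest fall in units was that of Cyp4b1, a fatty acid hydroxylase, which dropped by 2457. In the comparison of females with sham males, Kap made up 41.9% of the summed falls. Of the falls of castrated males below females, Kap held 45.6% at 18 months and 58.5% at 12 weeks, and Napsa, an aspartic protease, came next at both ages. Gpx3, a failed estimate in 12-week castrated males, was left out of the 12-week sums and of this order.

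The scale of the other genes was read with Kap in the column totals and with Kap left out. Over genes with a mean of 1 or more in 18-month kidney, the median difference of castrated from sham males was 0.13 on the log2 scale. When each column was rescaled with Kap left out of its total, that median became 0.03. The median gene of females against sham males was 0.11 before and after this rescaling, and that of castrated males against females went from 0.01 to -0.08. The 18-month differences of Kap itself changed by less than their implied errors under this rescaling.

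The other genes known to respond to androgen in kidney were read beside Kap as a list of 20 members, Kap included. The list was chosen with results of these data known, so its direction is no independent evidence. In 18-month kidney, 19 of the 20 fell with castration in the authors' deposited DESeq2 table, where 13.1% of all genes tested were called lower. The median difference of the list was -3.59 in log2(mean + 1), against 0.13 over all genes. The member that did not pass was Hsd11b1, an 11-beta-hydroxysteroid dehydrogenase, with means of 77.1 in sham and 73.1 in castrated males (adjusted p = 0.499). In females, 17 of the 20 were lower than in sham males, against 8.9% of all genes, and Gusb, Akr1c14 and Hsd11b1 did not pass in the authors' deposited table.

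Kap departed from most of this list in how castrated males compared with females. At 18 months the mean of castrated males was below that of females for Kap and 4 of the other 19 members, and above it for 15. In the authors' deposited DESeq2 table, Kap, Akr1c14 and Ugt8a were lower in castrated males than in females, where 4.41% of all genes were called lower. There were 10 members higher in castrated males in that table, where 2.73% of all genes were called higher. By a limit of 2-fold on mean + 1, with no test, Kap and Akr1c14 were lower and 5 members higher, where 0.91% of all genes were lower and 0.91% higher. Slc7a13, a transporter of the last part of the proximal tubule, had means of 612 in sham males, 9.32 after castration and 0.74 in females. Its order was thus the reverse of that of Kap among the low groups, with an adjusted p = 0.00181 by DESeq2 in the authors' deposited table. The fatty acid enzymes Acsm3 and Cyp4b1 had the same order as Slc7a13, with 13.6 against 1.59 and 616 against 274 in castrated males against females.

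At 12 weeks the list was counted by the same limit of 2-fold. Kap alone of the 20 was past this limit downward in castrated males against females, where 0.56% of all genes were, and 8 members were past it upward, where 0.449% of all genes were. Against sham males, in which Kap has no value, 17 of the other 19 members were past it downward in castrated males, where 3.84% of all genes were. The same count, 17 of 19, held for females against sham males, where 5.29% of all genes were past it downward. The low groups share these sham male libraries as their reference.

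**Figure D3:**
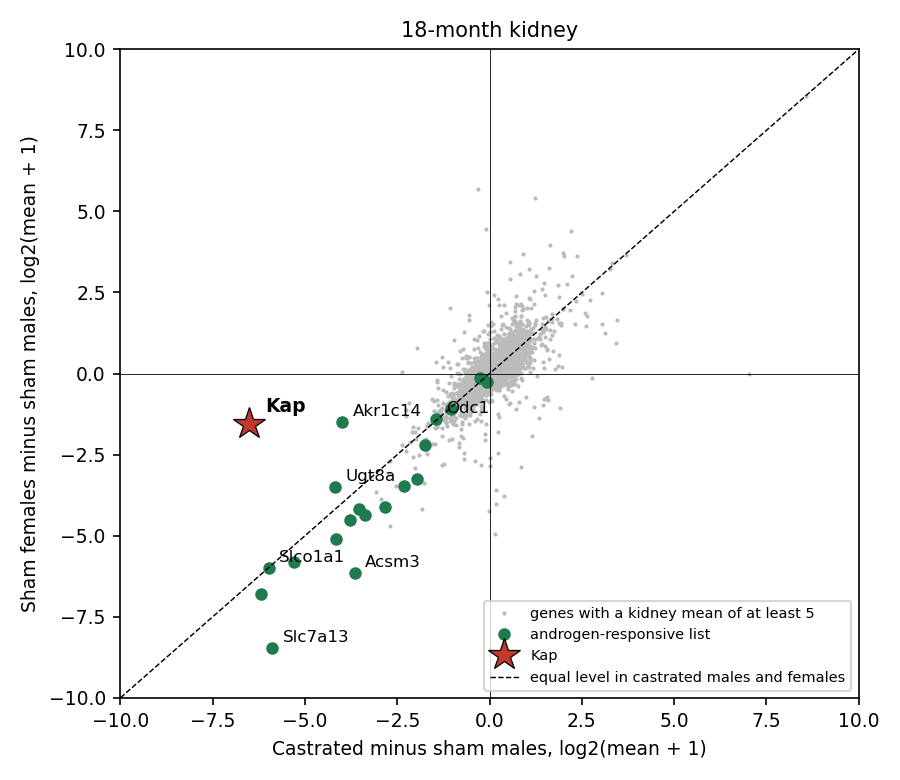
Difference of castrated from sham males (x) against difference of females from sham males (y) in 18-month kidney, both in log2(mean + 1), with 1 point per gene, and both axes share the sham male libraries. Kap lies at -6.52 and -1.56, above the dashed line of equal levels in castrated males and females, and 15 of the other 19 members of the androgen-responsive list lie below that line.

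**Figure D4:**
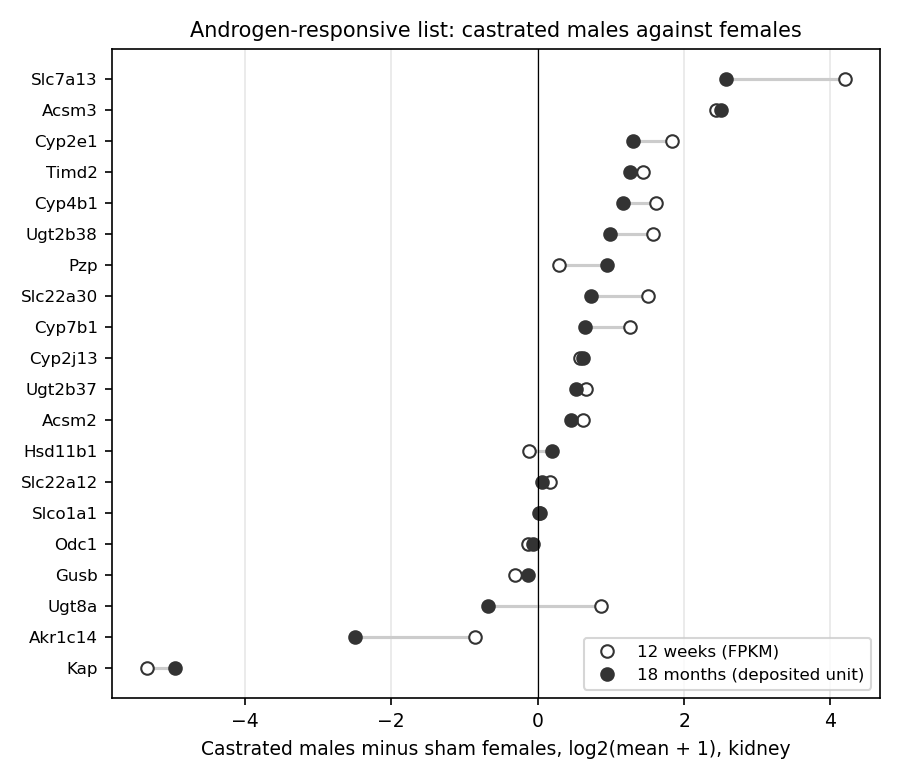
Castrated males minus sham females in kidney, in log2(mean + 1), for the 20 members of the androgen-responsive list at 12 weeks (open) and 18 months (filled). Kap is lowest at both ages, at -5.33 and -4.96, and Akr1c14 is next at -0.85 and -2.49.

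Akr1c14, a 3-alpha-hydroxysteroid dehydrogenase, came nearest to Kap by distance over both kidney differences from sham males, that of castrated males and that of females. Its 18-month means were 100.4 in sham males, 5.36 after castration and 34.7 in females, the order of Kap at a far lower level. Its fall with castration was -4.00 in log2(mean + 1) and its distance from females -2.49, with DESeq2 adjusted p = 4.44e-19 and 0.000663 in the authors' deposited table. The difference of females from sham males, -1.50, did not pass for Akr1c14 (adjusted p = 0.0726). At 12 weeks the means of Akr1c14 were 100.3, 11.8 and 22.1 FPKM, in the same order. Ugt8a, which makes galactosylceramide, came second by this distance, with 43.9, 1.47 and 2.94 at 18 months. Its 12-week means of 34.4, 3.74 and 1.60 FPKM put castrated males above females, unlike those of Kap.

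By correlation of log2(mean + 1) over the 6 groups of the 18-month table, the genes most like Kap among 9603 were Atp11a, Spag9, Lasp1, Inpp5f, Mtor, Ldc1, Tmem192, Slc17a3, Gss and Tmco3. Pearson's r with Kap ran from 0.992 to 0.997, and these are descriptions over 6 means that share the wide gap between kidney and liver. The labels do not say whether the 6 groups shared a library preparation. Atp11a, a phospholipid flippase, had kidney means of 184 in sham males, 40.2 after castration and 97.1 in females. Slc17a3, an organic anion transporter, followed the order of Kap with 188, 62.5 and 108.7. Mtor, the growth-controlling kinase, had 43.8, 24.8 and 43.6, and castrated males were lower than sham males and than females (adjusted p = 4.9e-11 and 0.000493, DESeq2, authors' deposited table), while females did not pass against sham males (adjusted p = 0.76). None of these 10 was among the 10 nearest genes by distance of the kidney differences, so likeness to Kap depended on the measure.

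Genes that, like Kap, were far lower in castrated males than in females mostly had another order. Among the 996 genes called in either direction with a mean of at least 5, the 10 largest falls were Akr1c18, Kap, Hdc, Igf2, Sec14l3, Slc17a2, Scd1, Ccl28, Slc22a7 and Akr1c14. Akr1c18, a progesterone-degrading enzyme, had 18-month means of 0.663 in sham males, 0.338 after castration and 85.6 in females, so the female group alone was high. Hdc, which makes histamine, had 3.42, 3.11 and 96.2, and the growth factor gene Igf2 had 0.70, 2.99 and 71.2. Of the 10, Kap and Akr1c14 alone had their highest mean in sham males.

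Genes of hormone action were read beside Kap in 18-month kidney. Among 19 receptors and steroid-handling genes, 7 fell with castration in the authors' deposited DESeq2 table (Thrb, Rxra, Nr3c1, Ghr, Srd5a1, Srd5a2 and Hsd17b11) and 3 rose (Prlr, Hsd11b2 and Dio1), where 13.1% of all genes tested fell and 9.56% rose. Thrb, Ghr, Prlr and Dio1 were lower in castrated males than in females, where 4.41% of all genes were. Ghr, the growth hormone receptor, had 295, 164 and 365 at 18 months and 203, 56.4 and 117 FPKM at 12 weeks, so its castrated male mean was the lowest at both ages. For Kap this is known at 18 months, and at 12 weeks only against females. Dio1, which activates thyroid hormone, had 18.3, 30.6 and 99.7, with sham males lowest.

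Among transcription factors of the proximal tubule and the C/EBP family, Hnf4a, Hnf4g and Maf fell with castration at 18 months and Cebpa and Cebpd rose. Hnf4a had means of 277 in sham males, 223 after castration and 229 in females, a small change beside that of Kap. Cebpa had 16.1, 23.7 and 18.8, the reverse of the order of Kap.

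Shared markers of the proximal tubule, in which Kap is made, differed far less between the groups than Kap did. Of 8 shared markers, Lrp2, Cubn, Slc34a1 and Hnf4a fell with castration at 18 months, against 13.1% of all genes, and the summed level of the 8 was 4709 in sham males, 4106 after castration and 3678 in females. At 12 weeks the sums were 2690, 2156 and 1859 FPKM. The endocytic receptor gene Lrp2 had 171, 144 and 219 units, with castrated males lowest, as for Kap. Of 8 markers of the last segment (S3), Slc7a13, Cyp7b1 and Atp11a fell with castration and Slc5a1, Slc7a12 and Slc22a13 rose, where 13.1% of all genes tested fell and 9.56% rose. The summed level of the S3 list was 1177 units in sham males, 508 after castration and 1074 in females at 18 months. Slc7a13 alone held 612 of the sham male units, so the order of these sums, that of Kap, leaned on 1 gene. The median difference of the S3 list from sham males was 0.11 in castrated males (0.13 over all genes) and 0.75 in females (0.11 over all genes). At 12 weeks the S3 sums were 928, 390 and 617 FPKM. The 12-week median differences of the S3 list from sham males were -1.43 in castrated males and -0.04 in females. Slc7a13 and Cyp7b1 are also members of the androgen-responsive list. The 8 markers of the earlier segments (S1 and S2) summed to 1172, 1212 and 944 units at 18 months and 979, 1065 and 816 FPKM at 12 weeks. The summed level of 12 markers of other nephron segments was 1993, 2975 and 4235 units at 18 months, with 8 of them higher in castrated than in sham males, against 9.56% of all genes. At 12 weeks these sums were 1289, 1170 and 1240 FPKM. The part of these markers in the difference of Kap was not tested.

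Markers of other tissues were read in the same kidney libraries. The summed level of 8 hepatocyte markers in 18-month kidney was 206 in sham males, 276 after castration and 85.0 in females, against 74664 or more in the 18-month livers. Of these 8, 6 were above 1 unit in sham males, 7 after castration and 4 in females, and Alb, the albumin gene, had 21.7, 65.1 and 12.8. That of 7 blood and immune markers was 2322, 3627 and 1930 units, highest in castrated males, where Kap was lowest. At 12 weeks the sums for sham males, castrated males and females went otherwise, with 167, 115 and 54.8 FPKM for hepatocyte markers and 369, 342 and 427 FPKM for blood and immune markers. The part of either list in the difference of Kap was not tested.

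The binding partner of the Kap protein showed no called difference. Ppib, which encodes cyclophilin B, had 18-month kidney means of 264 in sham males, 321 after castration and 297 in females, with DESeq2 adjusted p-values of 0.307, 0.922 and 0.68 in the authors' deposited table for castration, for females against sham males and for castrated males against females. Ppic, another cyclophilin, had 83.6, 89.3 and 243, and was higher in females than in either male group. In the renin-angiotensin system, which acts on the same tubule, Ace, Agtr1a, Mas1 and Enpep, 4 of the 7 genes listed, fell with castration, against 13.1% of all genes. Ace, the angiotensin-converting enzyme, had 56.9, 22.6 and 81.0 units at 18 months and 35.4, 12.9 and 30.4 FPKM at 12 weeks, with castrated males lowest at both ages.

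Kap stands far from other measured genes on its chromosome. The nearest neighbours in the tables are Etv6, a transcription factor gene 182 kb toward higher coordinates, and Smim10l1, 738 kb toward lower coordinates. Between them RefSeq has 11 further entries, of which 7 are pseudogenes, and neither table lists any of the 11. Of the 5 nearest measured genes on each side of Kap, Etv6 and Lrp6 fell with castration at 18 months, with means of 12.1 against 10.5 and 19.3 against 17.7 in sham against castrated males (adjusted p = 0.0208 and 0.0200, DESeq2, authors' deposited table). The other 8 did not pass, and 2 of 10 is near the 13.1% of all genes that fell.

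In liver the means of Kap were a small share of those in kidney. The 18-month liver means of Kap were 0.753 units in sham males, 3.02 after castration and 1.10 in females, which lay above 41.9%, 54.3% and 40.8% of genes. As a share of the kidney mean of the same group, the liver mean of Kap was 0.00101% in sham males, 0.371% after castration and 0.00435% in females. In the authors' deposited table the liver log2 folds of Kap are 1.95 for castration, 0.36 for females against sham males and 1.59 for castrated males against females, with implied errors of 1.13, 0.934 and 1.15. None passed, with DESeq2 p-values of 0.0861, 0.702 and 0.167 before adjustment and 0.692, 0.936 and 0.762 after it. The implied 95% interval for castration runs from -0.28 to 4.17, so neither no difference nor a rise of many fold lies outside it.

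At 12 weeks the liver means of Kap were 9.20 FPKM in castrated males, 0.984 in sham males and 0.227 in females. The castrated male value lay above 70.6% of genes, at 2.60 times the median gene. That column also has 3 abundant liver genes, Apoe, Serpina1b and Serpina1d, at 0 after the added 0.01 is subtracted and taken as failed estimates. Castrated males had the highest liver mean at this age too, while their kidney mean was far below that of females. The liver difference from females was 3.06 in log2(mean + 1) and ranked 3 among 7041 genes, yet the authors' deposited table gives it an adjusted p = 0.586 in the layout of Cuffdiff. Other kidney genes also had their highest liver sum in castrated males. Of the kidney marker lists, 23 genes had a mean under 1 in every liver group, and their summed liver level at 12 weeks was 1.54 FPKM in castrated males, 0.198 in sham males and 0.204 in females. Umod of the thick ascending limb and the glucose transporter gene Slc5a2 are at 0 after this subtraction in sham male and in female liver at 12 weeks. In castrated male liver they had 0.133 and 0.375 FPKM. At 18 months, where the table holds no mean under 0.01, these sums were 1.01, 0.663 and 0.747 units. The 12-week sums are 0.0388%, 0.00466% and 0.00557% of the kidney sums, while Kap stood at 1.34% in castrated males and 0.000817% in females. The limit under 1 was chosen after the data were seen, and the part of kidney RNA in the liver values of Kap was not tested.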

How the data were processed

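Kidney and liver RNA was measured in 12 groups. Kap, the gene lists and the tests were chosen with earlier results of these data known. Cufflinks, HISAT2 and SAMtools, with build mm10, are named per the submitters' processing notes. Their roles and versions were not given in the sources used here. Deposited by the authors at 12 weeks were FPKM group means, to which, from the values, 0.01 had been added; it was subtracted here. At 18 months the deposited group means are a normalized signal with no unit named. Per the file headers, the comparison tables hold a log2 fold, a p-value and its adjusted value, from DESeq2 at 18 months and in the layout of Cuffdiff at 12 weeks, where each gene is listed for 1 comparison of each tissue. A gene was called at the authors' adjusted p under 0.05. The deposited 18-month folds are second over first group and were turned to match the means.

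Differences are of log2(mean + 1), which understates the change of low genes. A mean of 0 beside a mean of at least 1000 in the same tissue was taken as a failed estimate, and this applied at 12 weeks to Kap and Gpx3 in kidney and to 3 genes in castrated male liver (Apoe, Serpina1b, Serpina1d). The implied error is the absolute log2 fold over the normal quantile of its p, and was chosen after the data were seen. Medians over all genes use genes with a mean of at least 1. Named genes are Kap, genes at the top of or next to Kap in a kidney column, the 10 most like it, the 10 largest falls of castrated males against females, neighbours on the chromosome and list members. Some list members are not reported here. Depth per library is unknown. The tables hold means, so the authors' own tests stand in for tests over libraries. Alternatives were other added values, rescaling without Kap, centring on the median gene, the authors' folds, other likeness measures and other limits for calls. Scripts were tested on simulated data and ran in Python 3.11.15 with pandas 2.3.3, numpy 2.4.6 and scipy 1.17.1.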

Additional observations from a re-analysis of the deposited data

How the results depend on the processing

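Of 67 alternatives, 57 left the value little changed and 10 moved it. For a difference of Kap, little changed means on its side and within its error (18 months) or within 1.5-fold (12 weeks). No difference of Kap turned its direction. Ranks, likeness and counts of calls have no such error, so this rule does not cover them. Leaving out genes with a failed estimate could not move a rank of Kap, because none stood above it in a ranked column. All 19 alternatives for the kidney differences of Kap were among the 57. Those that changed the added value could hardly move them, because the kidney means of Kap were far above every added value. In liver, where means were low, the added value set the size at both ages. At 12 weeks, with 0.01 in place of 1, castrated minus sham males was 3.21, females minus sham males -2.07 and castrated males minus females 5.28. With 10 these were 0.81, -0.10 and 0.91. In 18-month liver, castrated minus sham males was 1.20 with 1, 1.99 with 0.01 and 0.28 with 10. Castrated males minus females was 0.94, 1.45 and 0.23 in that order, and females minus sham males 0.26, 0.54 and 0.05. The 18-month liver values count as little changed only because their implied errors were larger than these shifts. Of the 10 genes most like Kap, 0 remained by distance of the kidney differences, 4 with a mean of at least 50 and 1 with no limit on the mean. The number of androgen-responsive members higher in castrated males than in females went from 10 to 5 under the 2-fold limit. No paired analysis was possible because the deposited values are group means, and for the same reason no library was left out in turn. The absence of a spread, the unknown depth, the missing 12-week sham male value and the unnamed 18-month unit limit what these data say of Kap.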
